A study of Mus musculus with 24 samples.

Results

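The regions described here were 1072 windows of open chromatin in tumor CD8 T cells, away from gene ends. The windows were among the strong peaks of 2 groups described as carrying a Lag3-driven label, DP and LAG3_SP. They were not among those of unlabelled tumor CD8 T cells, DN. They were chosen by their own values. In each of 12 tumor peak lists the strongest 19000 peaks were kept, ordered by the authors' -log10 p, and windows reaching 250 bp to either side of a summit were placed, strongest first and without overlap, which gave 27065 windows. A window was taken when 5 or more of the 6 libraries named DP and LAG3_SP had a kept peak over it, none of 3 libraries named DN had one, and its center lay over 1 kb from either end of any protein-coding gene. The 1072 windows were 6.29% of the 17030 windows away from gene ends. The DP, LAG3_SP and DN values given below are therefore a description of the choice and carry no test. The libraries named TDT_SP and the lymph node libraries took no part in it.

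Omni-ATAC, an assay in which the Tn5 transposase inserts sequencing adapters into accessible DNA, was run in bulk on sorted CD8 T cells. The mice, of C57BL/6 background, were Lag3-iCreERT2 Rosa26-LSL-tdTomato, with a tamoxifen-inducible Cre driven by Lag3 and a red reporter that Cre switches on. Every mouse bore a subcutaneous B16-F10 melanoma, received 2 mg tamoxifen on days 8 to 10 and was sampled on day 19, with no untreated or tumor-free group used here. The label marks expression of Lag3 during the tamoxifen days only, and a DN cell may have expressed it earlier or later. From tumor there were 4 DN libraries (LAG3- tdTomato-), 4 DP libraries (LAG3+ tdTomato+), 3 LAG3_SP libraries and 3 TDT_SP libraries. The LAG3_SP libraries are described as LAG3- tdTomato+ and the TDT_SP libraries as tdTomato+ with no LAG3 state. The name LAG3_SP can also be read as LAG3 single positive, without the red label. The descriptions do not settle which reading holds, so the groups are kept by library name. The sort also names a CD44+ tdTomato+ gate without saying which libraries it gave. There were 2 DN libraries, 2 TDT_SP libraries and 1 LAG3_SP library from nodes draining the tumor (DLN), and as many from nodes that do not (NDLN). All 24 libraries carry the same batch label, and nothing says which of them came from separate animals.

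Of the lists, 18 were long, with 14244 to 48268 peaks, and 6 were short, with 301 to 6613. The long tumor lists overlapped in length between groups, at 19771 to 42451 peaks in DN, 24050 to 45286 in DP, 19679 to 48268 in LAG3_SP and 22994 to 37485 in TDT_SP. Among markers of cell types, all 8 CD8 T cell markers looked at had a window, and 13 to 26 of their 30 windows had a kept peak in each long tumor library. The B cell markers Cd79a, Cd79b and Ms4a1, the myeloid markers Lyz2, Csf1r, Cd14 and Adgre1 and the pigment cell markers Tyr, Tyrp1, Dct and Sox10 had no window. Among the 6 B cell windows that there were, 2 to 3 had a kept peak in the DN libraries and 3 to 5 in DP and LAG3_SP, and of the 13 myeloid windows 5 to 10 and 8 to 11. The other pigment cell and melanoma markers had 6 windows, of which 4 to 6 had a kept peak in DN, 5 to 6 in DP and 3 to 5 in LAG3_SP. Of 12 windows of NK and innate markers, 8 to 11 had a kept peak in DN, 7 to 9 in DP and 5 to 8 in LAG3_SP. For 8 windows of stroma and endothelium markers it was 4 to 7, 3 to 6 and 4 to 6. In TDT_SP the counts were 11 to 12 for NK and innate, 9 to 13 for myeloid and 2 to 5 for B cell windows. They were 4 to 5 for pigment cell and melanoma and 3 to 5 for stroma and endothelium windows. Of 11 windows of CD4 and Treg markers, 5 to 8 had a kept peak in DN, 7 to 9 in DP and 7 to 8 in LAG3_SP and in TDT_SP. Such counts do not tell CD8 T cells from other cells, and the part of other cells in the results was not tested.

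Open chromatin away from gene ends includes enhancers, short stretches where transcription factors bind and from which they act on genes that may lie far off. T cells that meet antigen for a long time, as in a tumor, pass into exhaustion, a state with inhibitory receptors such as PD-1, LAG-3 and TIM-3 at the surface, reduced function and a chromatin landscape that differs from that of effector and memory cells. AP-1, NFAT and RUNX factors are among those known to bind the accessible sites of activated and exhausted T cells.

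Although all windows lay away from the outer ends of genes, 15 of those searched held 100 or more bases of an annotated promoter segment, a stretch around the start of a transcript, mostly upstream of it, in RefSeq (build GRCm38.p6). In 6 cases this was an inner start of a protein-coding gene, at Adam8, Fcrl6, Gcnt1, Klrc1, Naip5 and Ptgs1, and in 9 a long non-coding RNA. Shown are the 3 inner starts at genes of leukocyte surface proteins and 2 non-coding starts with an AP-1 string. They were chosen after their values were seen, and only the bases inside the window are printed, 5' to 3' on the strand of the transcript. Capitals mark a match on either strand to the letters TGANTCA (AP-1) or TGTGGT (RUNX).
Adam8, chr7:139992513-139992807, - strand: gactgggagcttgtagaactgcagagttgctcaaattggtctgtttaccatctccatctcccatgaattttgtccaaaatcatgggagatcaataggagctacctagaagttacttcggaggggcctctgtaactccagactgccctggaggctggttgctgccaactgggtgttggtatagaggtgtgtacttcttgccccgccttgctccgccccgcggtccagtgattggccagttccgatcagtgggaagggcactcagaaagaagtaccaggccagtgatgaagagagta
Fcrl6, chr1:172602502-172602801, - strand: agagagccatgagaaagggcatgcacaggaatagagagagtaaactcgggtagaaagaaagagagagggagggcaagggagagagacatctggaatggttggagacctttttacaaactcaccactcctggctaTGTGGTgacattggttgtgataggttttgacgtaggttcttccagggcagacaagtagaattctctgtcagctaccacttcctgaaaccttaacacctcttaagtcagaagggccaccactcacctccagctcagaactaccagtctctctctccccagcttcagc
Klrc1, chr6:129678924-129679132, - strand: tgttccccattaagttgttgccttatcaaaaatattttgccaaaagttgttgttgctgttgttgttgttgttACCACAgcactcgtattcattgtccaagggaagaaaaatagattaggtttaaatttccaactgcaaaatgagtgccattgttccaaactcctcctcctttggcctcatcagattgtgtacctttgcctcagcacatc
3300005D01Rik, chr17:5798407-5798706, + strand: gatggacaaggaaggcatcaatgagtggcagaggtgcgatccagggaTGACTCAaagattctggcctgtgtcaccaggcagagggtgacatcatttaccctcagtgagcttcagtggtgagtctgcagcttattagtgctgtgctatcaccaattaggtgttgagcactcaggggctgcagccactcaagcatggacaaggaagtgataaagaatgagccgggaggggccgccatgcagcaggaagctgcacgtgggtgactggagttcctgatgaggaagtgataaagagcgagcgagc
Gm30366, chr11:52579302-52579601, + strand: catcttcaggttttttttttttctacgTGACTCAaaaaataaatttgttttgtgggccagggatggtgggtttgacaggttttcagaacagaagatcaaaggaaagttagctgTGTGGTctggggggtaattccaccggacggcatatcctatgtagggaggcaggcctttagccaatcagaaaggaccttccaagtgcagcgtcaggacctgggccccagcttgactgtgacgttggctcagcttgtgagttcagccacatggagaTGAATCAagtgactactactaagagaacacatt
Counted over the whole promoters to which the 15 segments belong, the AP-1 letters were in 3 of 15 and in 7.81% of all 32851 RefSeq promoters. The RUNX letters were in 6 of 15 and in 16.8% of all. NFAT (TGGAAAA) was found in 3 of 15 against 6.73%, and TCF (CTTTGAA) in 2 of 15 against 5.14%. The strings searched for NR4A, ETS, T-box, KLF, NF-kB and CTCF were in none of the 15. Of all promoters they were in 1.51%, 2.3%, 1.28%, 3.56%, 0.225% and 0.0122%. All promoters include those at outer gene ends, which the choice left out. The shares therefore do not compare gained windows with other open windows. Some matches lay in bases outside the window, matches of different strings may overlap, and a match describes the letters only.

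These 5 windows are examples of how the values are given. A peak's rank value is its quantile in its own list, 1 for the strongest kept peak and near 0 for the weakest, and a library with no kept peak over the window has 0. It gives the order of peaks in 1 library, which does not measure how open a region is. Because the windows were chosen for peaks in DP and LAG3_SP, lower TDT_SP values beside them follow in part from the choice and are given as a description. Tumor values refer to the strongest 19000 peaks and node values to the strongest 14000. At Adam8, which encodes a membrane metalloprotease of leukocytes, DP replicates 1, 2 and 4 had 0.794, 0.577 and 0.873, and LAG3_SP replicates 1, 2 and 3 had 0.921, 0.755 and 0.622. The TDT_SP libraries had 0.537, 0.449 and 0.375, all below every DP and LAG3_SP value, and of the 6 long node lists only NDLN LAG3_SP had a peak, at 0.754. At Fcrl6, an Fc receptor-like gene of cytotoxic lymphocytes, DP had 0.624, 0.581 and 0.694, LAG3_SP 0.61, 0.544 and 0.477, and TDT_SP 0, 0.263 and 0.0872. At Klrc1, which encodes the NKG2A chain of the inhibitory CD94-NKG2A receptor, DP had 0.3, 0 and 0.126, LAG3_SP 0.388, 0.335 and 0.335, and TDT_SP 0, 0.0348 and 0. The Klrc1 window is one of those with a missing list, DP replicate 2, and its node value was 0.419 in NDLN LAG3_SP and 0 in the other 5. The window of 3300005D01Rik had 0.555, 0.237 and 0.515 in DP, 0.628 in LAG3_SP replicate 1, 0.094 in replicate 3 and at most 0.144 in TDT_SP. That of Gm30366, with no protein-coding gene within 100 kb, had 0.0749, 0.15 and 0.287 in DP and 0.571, 0.0885 and 0.365 in LAG3_SP.

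Of the 1072 windows, 578 had a kept peak in all 6 DP and LAG3_SP libraries and 494 in 5. The list that lacked a peak was most often LAG3_SP replicate 3, for 234 windows, followed by DP replicate 4 for 123, while LAG3_SP replicate 2 lacked 15. These 2 libraries also had narrower peaks, with a median width over the whole list of 147 bp and 209 bp against 300 to 388 bp in the other 4. The mean rank value over the 6 libraries had a median of 0.33 and ran from 0.0371 to 0.876. For comparison, the median was 0.491 over the 7843 windows away from gene ends with a peak in 5 or more of the 6 lists whatever the DN state. LAG3_SP had the higher mean in 640 windows and DP in 432.

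The edges of the choice were not sharp. Just outside it lay 596 windows with a peak in 4 of the 6 lists and in no DN list, with a median mean rank value of 0.158 against 0.248 for the members in 5 lists and 0.428 for those in 6. Another 589 had 5 or more lists and 1 of the 3 DN lists, with a median of 0.369. At gene ends, 44 windows (0.438%) met both peak conditions. With all deposited peaks, 806 (75.2%) had a peak in at least 1 of the 3 long DN lists, among them 564 in replicate 1, 735 in replicate 2 and 21 in replicate 4, whose lists held 32717, 42451 and 19771 peaks. These were 52.6%, 68.6% and 1.96% of the gained windows, against 84.7%, 91% and 52.8% of all windows away from gene ends. The median place of these peaks was 25253 and 28205 in the first 2 lists. The remaining 266 windows had no peak at all in the 3 lists. Adjacent windows can share a peak: 35 of the windows lay under 1 kb from another one.

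**Figure D1:**
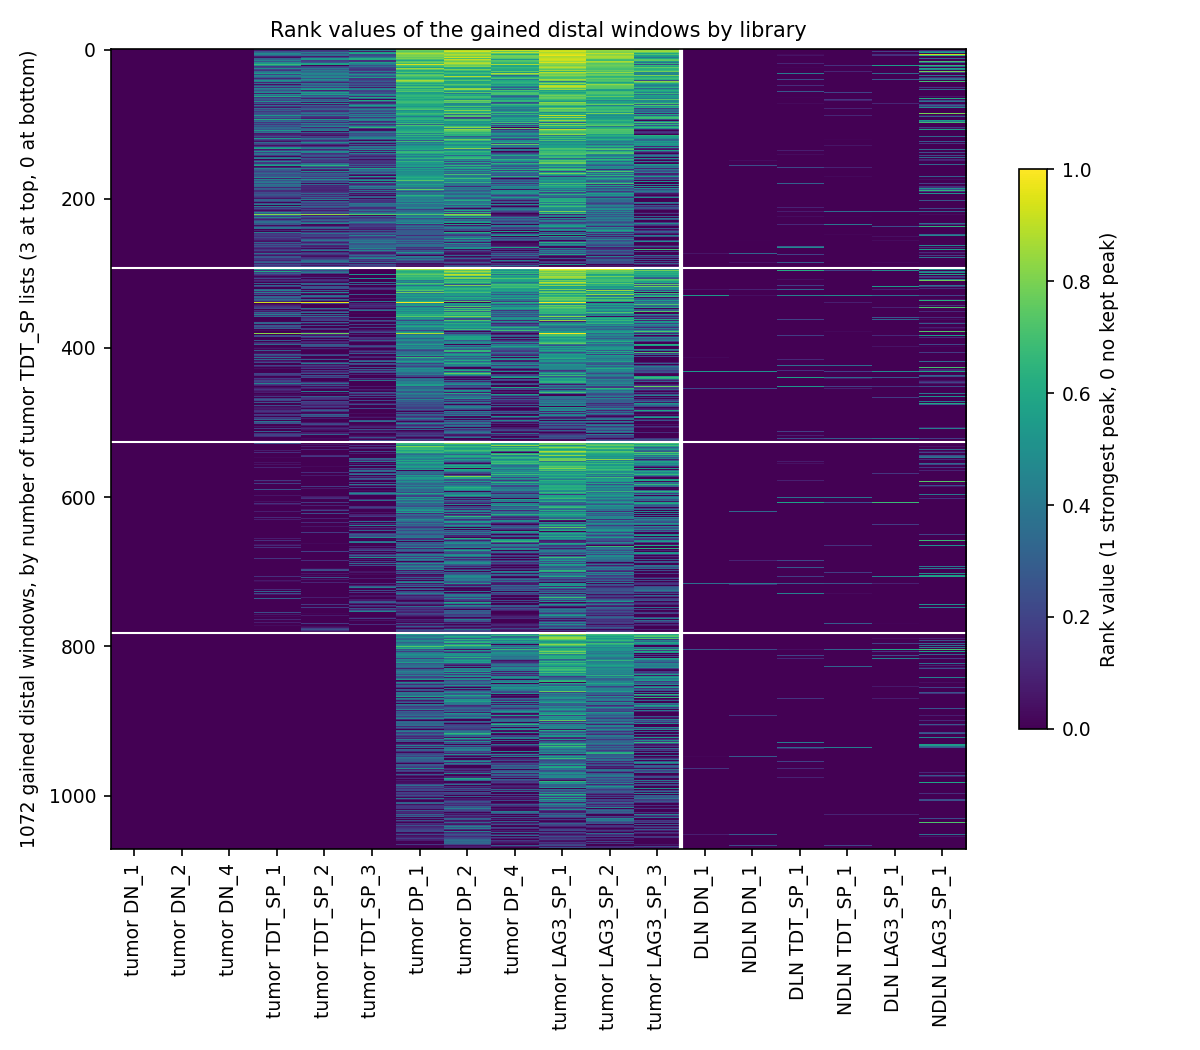
Each line is 1 of the 1072 windows and each column a library with a long peak list. Colour gives the rank value, from dark at 0 (no kept peak) to yellow at 1, within the strongest 19000 peaks of a tumor list and 14000 of a node list. White lines part the windows with a peak in 3, 2, 1 and 0 of the tumor TDT_SP lists (293, 234, 256 and 289 windows). DN is empty because the choice required it, TDT_SP is darker than DP and LAG3_SP, and among node lists NDLN LAG3_SP shows the most peaks.

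The highest mean over DP and LAG3_SP was at a window inside Stab2 (chr10:86847065-86847565), which encodes a scavenger receptor, with 0.915, 0.907 and 0.898 in DP and 0.895, 0.89 and 0.748 in LAG3_SP. TDT_SP had 0.355, 0.346 and 0.515, all lower, and every node list had 0. Inside Stk39 (chr2:68289145-68289645), a stress-related kinase gene, DP had 0.774, 0.877 and 0.874, LAG3_SP 0.935, 0.914 and 0.842, and TDT_SP 0.505, 0.524 and 0.611. Inside Pde4b (chr4:102393521-102394021), whose product degrades cyclic AMP, DP had 0.771, 0.885 and 0.906, LAG3_SP 0.917, 0.836 and 0.835, and TDT_SP only 0.081, 0.154 and 0.405. Pde4b held 2 more of the windows. At a window 30.38 kb from Nrp1 (chr8:128535601-128536101), the gene of the co-receptor neuropilin-1, DP had 0.737, 0.934 and 0.764 and LAG3_SP 0.933, 0.821 and 0.859, with 0.254, 0.19 and 0.0738 in TDT_SP. The other 4 of the 8 strongest were inside Synpo2, an actin-binding protein gene, 61.66 kb from Eed, a subunit gene of the Polycomb repressive complex PRC2, 45.1 kb from Scaf4 and inside Ubxn7. Nearness does not show which gene a window acts on.

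Among the 20 exhaustion genes looked at, 5 of 105 windows away from gene ends (4.76%) were gained, at Ctla4, Entpd1, Havcr2 and Tox2, compared with 6.29% over all such windows. These genes encode the inhibitory receptors CTLA-4 and TIM-3, the ectoenzyme CD39 and a relative of the exhaustion factor TOX. The window 9.44 kb from Ctla4 (chr1:60899338-60899838) had 0.567, 0.609 and 0.527 in DP, 0.724, 0.702 and 0.299 in LAG3_SP and 0.161, 0.125 and 0.243 in TDT_SP. The 3 TDT_SP values lay below all 6 others. The window inside Havcr2 (chr11:46474101-46474601) had 0.528, 0.694 and 0.602 in DP, 0.842, 0.661 and 0 in LAG3_SP and 0.301, 0.246 and 0.427 in TDT_SP, so LAG3_SP replicate 3 was the one library of the 6 without it. The higher of 2 Entpd1 windows (chr19:40691855-40692355) had 0.0955, 0.24 and 0.394 in DP, 0.4, 0.244 and 0.398 in LAG3_SP and no kept peak in TDT_SP. That of Tox2, 36.79 kb from the gene, reached 0.45 in DP replicate 2 and lacked a peak in DP replicate 4. The Ctla4 and Havcr2 windows had kept peaks in 3 TDT_SP libraries and the Tox2 window in 1.

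Genes of secreted factors held 10 of 36 windows away from gene ends (27.8%, against 6.29% over all such windows). These were at Il10 (3), Ccl3 (2), Il21 (2), Ccl1, Ccl5 and Csf1. Il10 encodes an anti-inflammatory cytokine that exhausted and regulatory T cells can make, Il21 a helper cytokine and Ccl3, Ccl1 and Ccl5 chemokines. The strongest, 19.2 kb from Il10 (chr1:131000399-131000899), had 0.685, 0.555 and 0.422 in DP, 0.904, 0.748 and 0.5 in LAG3_SP and 0.391, 0.409 and 0.321 in TDT_SP. A second, 13.26 kb from Il10, had 0.435, 0.459 and 0.159 in DP and 0.756, 0.534 and 0 in LAG3_SP. The third window, inside the gene (chr1:131021378-131021878), lacked DP replicate 2 and was highest in LAG3_SP replicate 3 at 0.587. At Il21 the higher window, 27.21 kb away, had 0.286, 0.255 and 0 in DP and 0.545, 0.418 and 0.405 in LAG3_SP, where no value was below those of DP. The counts come from 6 genes and are given without a test. This and the other gene lists were chosen with earlier results of these data known, so a high share may follow from that choice. The 2 Ccl3 windows lay under 1 kb apart (chr11:83628755-83629255 and chr11:83629657-83630157).

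Transcription factor genes of T cells held 17 of 136 (12.5%), with 4 at Runx2, 3 at Etv6 and 2 at Runx1, and 1 each at Ets2, Gata3, Ikzf2, Irf2, Irf8, Maf, Mbd2 and Tcf12. Runx2 and Runx1 encode RUNX family factors, and Ets2 and Etv6 encode ETS family factors. The window 88.29 kb from Ets2 (chr16:95809085-95809585) had 0.618, 0.594 and 0.479 in DP, 0.836, 0.836 and 0.56 in LAG3_SP and 0.356, 0.37 and 0.439 in TDT_SP. One inside Etv6 (chr6:134066959-134067459) had 0.508, 0.637 and 0.469 in DP, 0.574, 0.672 and 0.748 in LAG3_SP and 0.218, 0.297 and 0.0715 in TDT_SP. A neighbouring Etv6 window under 1 kb away shared most of these peaks. The strongest at Runx2 (chr17:44766305-44766805) had 0.631, 0.78 and 0.662 in DP, 0.627, 0.446 and 0.459 in LAG3_SP and 0.217, 0.273 and 0.605 in TDT_SP. Here TDT_SP replicate 3 overlapped the LAG3_SP values. The other 3 Runx2 windows were weaker, and 2 of them had no kept peak in any TDT_SP list. The window 3.01 kb from Mbd2, a gene for a reader of methylated DNA, had 0.415, 0.658 and 0.575 in DP and 0.78, 0.692 and 0.675 in LAG3_SP, so DP lay below LAG3_SP in every library.

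Effector genes held 6 windows (5.94% of theirs), at Cx3cr1 (2), Fasl, Id2, Prdm1 and Runx3. Id2, an inhibitor of E proteins that goes with effector and terminal states, had a window 47.61 kb away (chr12:25143456-25143956) with 0.59, 0.141 and 0.627 in DP, 0.638, 0.511 and 0.542 in LAG3_SP and 0.048, 0 and 0 in TDT_SP. The Fasl window, 93.38 kb from this death ligand gene, had no kept peak in TDT_SP. The 2 windows at Cx3cr1, a chemokine receptor gene of cytotoxic cells, had kept peaks in all 3 TDT_SP libraries, up to 0.346 and 0.328, and in DLN TDT_SP (0.31 and 0.462). Of the tissue residency genes, 5 of 56 windows (8.93%) were gained, at Rgs1 (2), Ahr, Litaf and Tgfbr2. The higher one at Rgs1, a signalling brake expressed by tissue-resident cells (chr1:144215237-144215737), had 0.422, 0.4 and 0.411 in DP, 0.654, 0.401 and 0.478 in LAG3_SP and no kept peak in TDT_SP or in any node list. For Ahr, a ligand-activated factor of barrier lymphocytes, the values were 0.364, 0.38 and 0.0765 in DP and 0.696, 0.464 and 0.475 in LAG3_SP.

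Genes of metabolism and hypoxia held 5 of 46 (10.9%), at Epas1, Gpd2, Hif1a, Hk2 and Myc. Epas1 and Hif1a encode the alpha subunits of the hypoxia-inducible factors HIF-2 and HIF-1. The window 17.46 kb from Epas1 (chr17:86850621-86851121) had 0.602, 0.514 and 0.719 in DP, 0.713, 0.762 and 0.693 in LAG3_SP and 0.111, 0.248 and 0.154 in TDT_SP, with no overlap between TDT_SP and the others. The window 13.11 kb from Hif1a was lower, at most 0.542, and lacked DP replicate 4. The window 53.53 kb from Myc, a transcription factor gene of cell growth, varied widely, from 0.108 to 0.725 in DP and from 0.0984 to 0.835 in LAG3_SP. Of genes induced by T cell receptor signals, 3 of 73 windows (4.11%) were gained, 2 at Ptpn22 and 1 at Ubash3b, both phosphatase genes that damp the signal. The higher one, inside Ptpn22 (chr3:103907506-103908006), had 0.691, 0.887 and 0.646 in DP, 0.832, 0.734 and 0.649 in LAG3_SP and 0.52, 0.565 and 0.451 in TDT_SP.

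Gained windows also occurred at genes of naive and memory cells, 4 of 100 (4%), among them Bach2, Bcl2 and Foxo1, and at progenitor exhausted genes, 3 of 48 (6.25%), at Cd28, Cxcr5 and Myb. The window 1.6 kb from Bach2, a repressor of effector differentiation (chr4:32587459-32587959), was uneven within groups, with 0.935, 0.974 and 0.381 in DP, 0.259, 0.94 and 0.334 in LAG3_SP and 0.874, 0.839 and 0 in TDT_SP. At Cxcr5, a follicle-homing receptor gene, DP had 0.463, 0.362 and 0.301, LAG3_SP 0.655, 0.57 and 0, and TDT_SP 0.347, 0.113 and 0.226. The remaining lists gave 1 of 18 windows for chemokine receptors (Ccr2), 2 of 33 for costimulation (Cd226 and Tnfrsf9), 4 of 65 for cytokine receptors and STAT factors (Jak1, Stat3 and 2 at Stat4) and 3 of 62 for cell cycle and survival (all at Cdk6).

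Markers of other cell types were checked in the same way. CD8 T cell markers gave 1 of 19 windows (Cd2), CD4 and Treg markers 1 of 7 (Cd4), NK and innate markers 1 of 12 (Fcer1g), myeloid markers 1 of 9 (Cebpb), and B cell, melanoma and stroma markers 0 of 5, 0 of 2 and 0 of 7. The window inside Cd4 (chr6:124885114-124885614) lies 19 kb from the end of Lag3, the gene by whose product and promoter the cells were sorted and labelled. It had 0.343, 0.604 and 0.47 in DP, 0.374, 0.447 and 0.405 in LAG3_SP and 0.0951, 0.134 and 0.103 in TDT_SP. The window 69.7 kb from Cebpb had 0.665, 0.634 and 0.704 in DP, 0.573, 0.545 and 0.634 in LAG3_SP and 0.262, 0.0863 and 0.205 in TDT_SP.

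**Figure D2:**
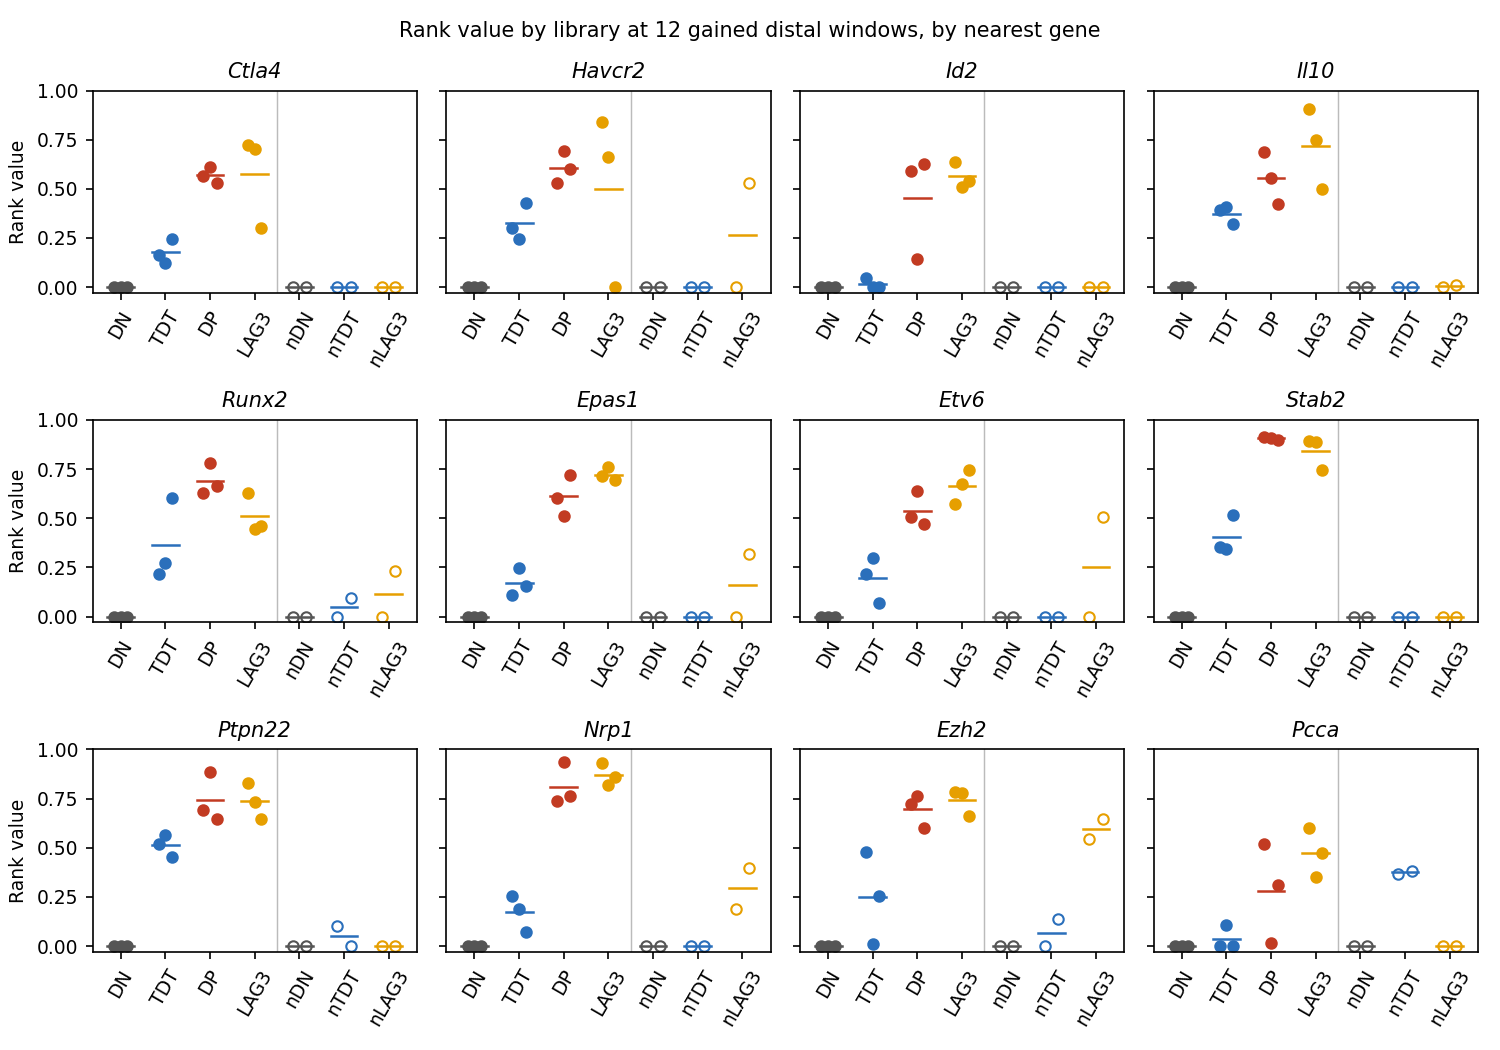
Rank value (vertical axis, 0 for no kept peak to 1) in each library at 12 gained windows, named by nearest gene. Filled points are tumor libraries (DN, TDT_SP, DP, LAG3_SP) and open points node libraries of DN, TDT_SP and LAG3_SP (nDN, nTDT, nLAG3), and the short lines are means. DN is at 0 by the choice of windows. TDT_SP is low at Id2 and Ctla4 and nearer to DP and LAG3_SP at Ptpn22, and Nrp1, Ezh2 and Pcca show node values above 0.

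The windows were spread over the genome. They made up 4.58% (chromosome 17) to 8.17% (chromosome 8) of the windows away from gene ends on each chromosome. Inside a gene lay 585 (54.6%, against 57.3% of all windows away from gene ends). The 487 between genes lay a median of 28.2 kb from the nearest gene, against 18 kb, and 73 (6.81%, against 5.03%) had no protein-coding gene within 100 kb. Another gained window lay within 10 kb of 141 of them (13.2%). Of all 17030 windows away from gene ends, 50.4% had another of that larger set within 10 kb. The 2 shares cannot be compared because the sets differ in size, so whether the gained windows cluster was not tested. The 1072 windows belonged to 807 nearest genes, of which 657 had 1, 116 had 2 and 34 had 3 or more. Ptpn5, which encodes a tyrosine phosphatase studied mainly in neurons, had the most, 5 of its 7 windows, from chr7:47103969-47104469 to chr7:47146020-47146520, with mean values over DP and LAG3_SP of 0.42 at most. Runx2, Dock9, Fam3c, Zfp827 and Gse1 had 4 each, of 22, 9, 9, 6 and 14 windows away from gene ends. Dock9 encodes an activator of the GTPase Cdc42. At Dock9 the strongest window had 0.518, 0.476 and 0.533 in DP, 0.703, 0.649 and 0.524 in LAG3_SP and 0.127, 0.218 and 0.241 in TDT_SP, while the other 3 had DP values from 0 to 0.45 and no kept peak in TDT_SP. Arhgap10, a GTPase-activating protein gene, had 3 strong windows, with DP values from 0.646 to 0.861 and LAG3_SP values from 0.409 to 0.898. Pde4b and Sik3, a salt-inducible kinase gene, also had 3.

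The TDT_SP libraries of tumor, sorted for the label and not used in the choice, shared the windows in part. Each of the 3 lists had a peak among its strongest 19000 at about the same number of windows, 526, 531 and 546 (49.1%, 49.5% and 50.9%), against 60.1% to 66% of all windows away from gene ends. In all 3 lists it was 293 windows (27.3%), in 2 lists 234, in 1 list 256 and in none 289 (27%). Of all windows away from gene ends, 47.6% were in all 3 lists and 19.8% in none. A peak in 2 or more TDT_SP lists was found at 527 windows (49.2%), against 63.8% of windows away from gene ends and 90.3% of those with 5 or more DP and LAG3_SP lists. The rule requires absence from DN, so no test was made of these shares. Windows shared by more TDT_SP lists were stronger in DP and LAG3_SP, with median mean values of 0.258, 0.302, 0.364 and 0.467 for 0, 1, 2 and 3 lists. In the same order, 50.2%, 61.7%, 76.1% and 86.7% had a peak in the full list of DN replicate 2, and 2.08%, 0.781%, 3.42% and 1.71% in that of replicate 4.

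The median of the TDT_SP mean over the windows was 0.0682, and in 41 windows it exceeded the mean of DP and LAG3_SP, which the choice had set high. With the full lists, 1033, 1038 and 711 windows (96.4%, 96.8% and 66.3%) had a TDT_SP peak, shares near those of all windows away from gene ends (94.9%, 95.1% and 68.5%). Had TDT_SP stood in the place of DN in the rule, 344 windows would have been chosen.

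**Figure D3:**
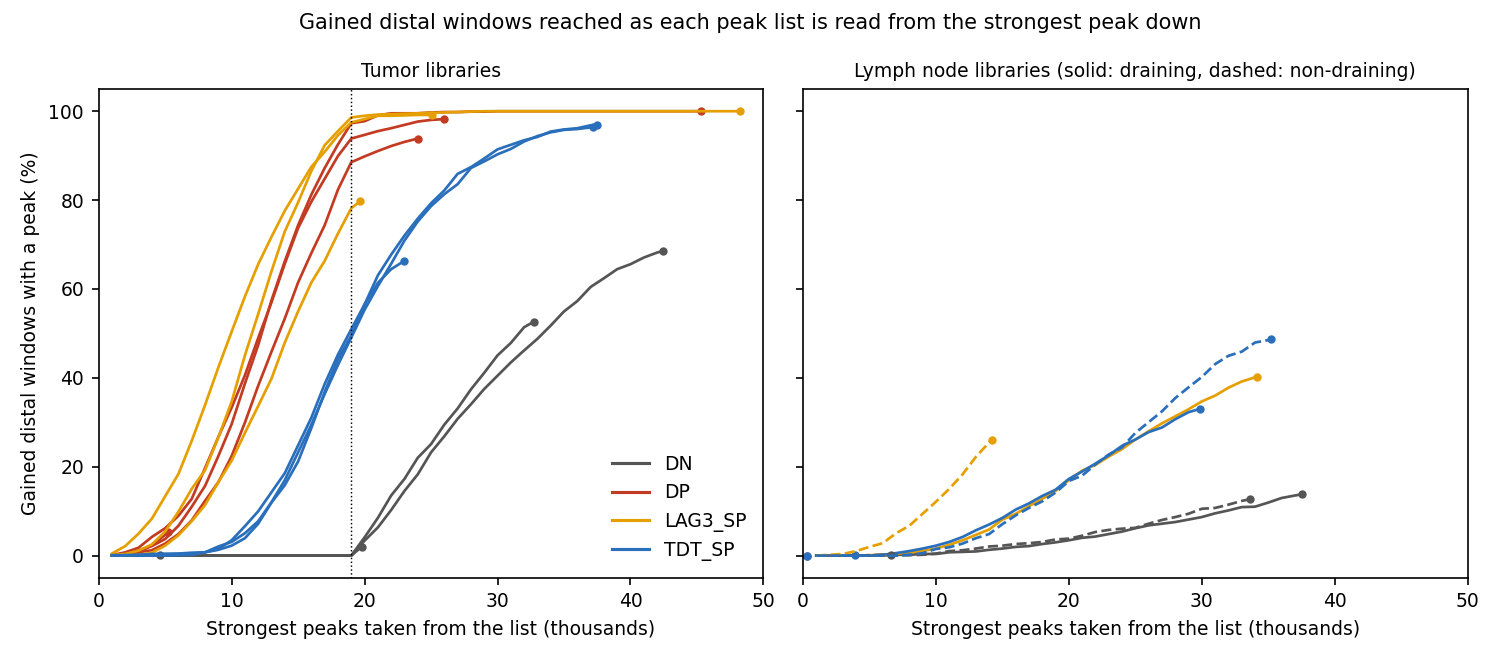
Percent of the 1072 windows with a peak (vertical axis) as more of a peak list is read, from the strongest peak down (horizontal axis, in units of 1000 peaks), 1 line per library and a point at the end of each list. The dotted line marks the 19000 peaks used in the choice, where DN is 0 by definition. The place of the TDT_SP lines between DP or LAG3_SP and DN follows in part from the choice. Among the node lists NDLN LAG3_SP rises first and the 2 DN lists last.

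Single windows showed both ends of this range. TDT_SP was highest inside Galnt2 (chr8:124317168-124317668), an enzyme gene of O-glycosylation, with 0.817, 0.838 and 0.733, where DP had 0.719, 0.827 and 0.0411 and LAG3_SP 0.103, 0.261 and 0. This window passed the rule with weak peaks in 3 of its libraries. High TDT_SP values were also found inside Faxc, at 0.678, 0.581 and 0.415, and inside Pdcd6ip, which encodes the ESCRT-associated protein ALIX, at 0.421, 0.661 and 0.558. Inside Cast, the calpastatin gene, TDT_SP had 0.922, 0.961 and 0 and DP 0.991, 0 and 0.616, so single libraries of each group lacked a peak. At the other end were windows strong in DP and LAG3_SP with no kept TDT_SP peak. The strongest lay inside Ly75 (chr2:60370184-60370684), an endocytic receptor gene, with 0.564, 0.552 and 0.708 in DP and 0.869, 0.771 and 0.128 in LAG3_SP. It also had no peak in any full DN list and no kept peak in a long node list. The next were near Mmd, with 0.536, 0.412 and 0.481 in DP and 0.823, 0.679 and 0.574 in LAG3_SP, and inside Vipr2, a neuropeptide receptor gene, with 0.385, 0.444 and 0.651 in DP and 0.623, 0.629 and 0.701 in LAG3_SP.

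In lymph nodes few of the windows had a strong peak. Among the strongest 14000 peaks, 14 windows (1.31%) had a peak in DLN DN and 22 (2.05%) in NDLN DN. The counts were 75 (7%) and 52 (4.85%) in DLN and NDLN TDT_SP and 63 (5.88%) and 273 (25.5%) in DLN and NDLN LAG3_SP. Of all windows away from gene ends, 37.1% to 40.3% had a peak in each of the 6 lists, and in tumor TDT_SP 182, 170 and 199 of the gained windows (17%, 15.9% and 18.6%) did at the same depth. The NDLN LAG3_SP library stood apart, and its list was also the shortest of the long ones, with 14244 peaks and a median width of 164 bp against 262 to 283 bp in the other 5. Whether that library differs for its cells or its making was not tested. Of the windows in DLN LAG3_SP, 54% were also in NDLN LAG3_SP, and 12.5% of those in NDLN LAG3_SP were in DLN LAG3_SP.

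In all, 716 windows (66.8%) had no kept peak in any of the 6 node lists, against 36.3% of windows away from gene ends. In both node TDT_SP lists there were 22, of which 18 were in neither node DN list, and in both node LAG3_SP lists 34, of which 28 were in neither. In both node DN lists there were 12, of which 4 were in neither node TDT_SP list and 2 in neither node LAG3_SP list. These overlaps were not counted over all windows away from gene ends, so they have no background and show no difference between groups. With the full lists, of 14244 to 37544 peaks, the shares in DLN and NDLN were 13.8% and 12.7% in DN, 33% and 48.8% in TDT_SP and 40.1% and 26.1% in LAG3_SP. Of all windows away from gene ends they were 70.5% and 67.8%, 69.3% and 77.8%, and 75.5% and 37.6%.

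**Figure D4:**
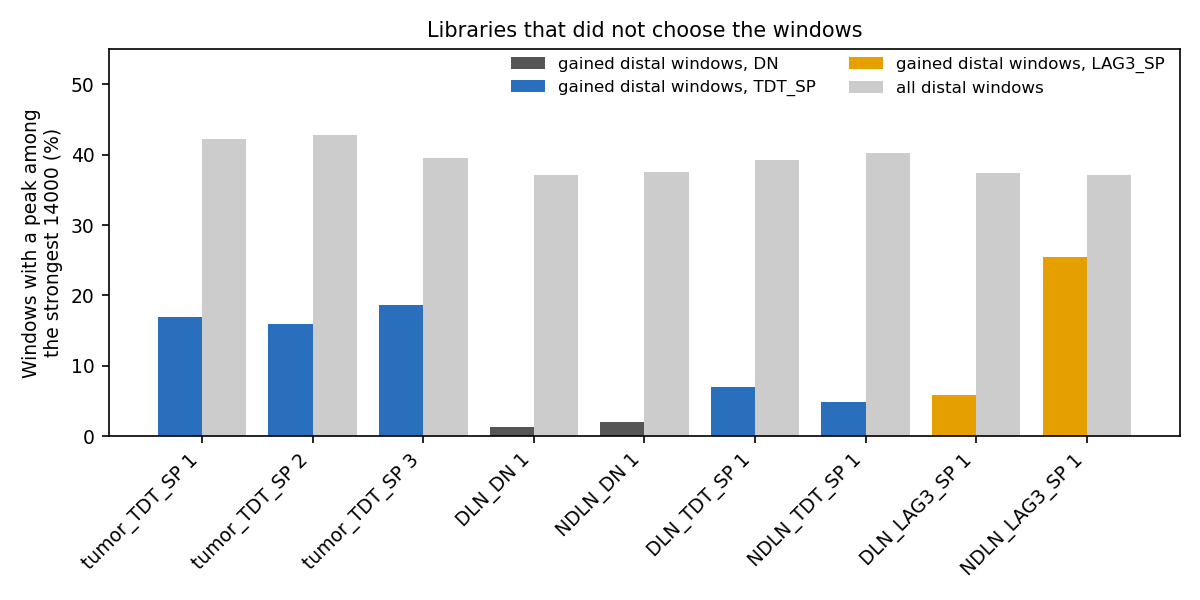
Percent of windows (vertical axis) with a peak among the strongest 14000 of each of the 9 long-list libraries that took no part in the choice. Coloured bars are the 1072 gained windows and grey bars all 17030 windows away from gene ends. The gained windows reach 15.9% to 18.6% in tumor TDT_SP, 25.5% in NDLN LAG3_SP and 1.31% to 7% in the other node lists, below the grey bar of 37.1% to 42.8% in every library.

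Differences at single windows were tested with limma in the 9 long-list libraries that had not served the choice, 3 of tumor TDT_SP and 1 of each node group, on rank values of the strongest 14000 peaks with both nodes pooled. Of the gained windows 282 had a peak in 2 or more of the 9 and entered the fit, among 20964 windows tested. The 790 others could not be tested, and the 282 are those with the strongest signal in these libraries. In each node group 1 library came from each node, and limma takes their spread from all 9.

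Tumor TDT_SP minus node TDT_SP was called at 22 gained windows, 13 higher and 9 lower in tumor, where 10.5% of all windows tested were called, 5.68% higher and 4.79% lower (limma, Benjamini-Hochberg adjusted p under 0.05). The largest difference was at Galnt2, with 0.723 (SE 0.0885, adjusted p = 0.0118) and no node TDT_SP peak. Higher in tumor were also windows near Prex1 (difference 0.288, adjusted p = 0.0159), inside Septin9 (0.328, 0.016), near Arf2 (0.361, 0.0188), inside Kdm4a (0.292, 0.0207) and inside Ppp4r4 (0.305, 0.0217). Prex1 encodes an activator of the GTPase Rac, Kdm4a a histone demethylase and Arf2 a vesicle traffic GTPase. All but Galnt2 had no kept peak in any node list, so they entered the fit through tumor TDT_SP alone, the group where they are high, and are no support for a difference of the gained windows. The split of the gained windows turned to 2 higher and 6 lower when all 18 libraries were fitted. Also called were the windows described above at Stk39 (0.348, adjusted p = 0.0226), Ptpn22 (0.286, 0.0357), Pdcd6ip (0.385, 0.0364) and Faxc (0.4, 0.0404). At Stk39 and Ptpn22 the only node peak was in DLN TDT_SP (0.0735 and 0.103). They too passed the filter of 2 libraries only with tumor TDT_SP, where they are high, and are no support for a difference either. Il10 was not (0.15, adjusted p = 0.0708). Windows inside Pcca, near Foxq1 and inside Zfp827 were lower in tumor, entered the fit through node TDT_SP alone and are no support either. Also lower in tumor were windows inside B4galnt3 and Ankrd12 and near Cand1. These calls rest on few libraries: without DLN TDT_SP replicate 1 limma called 0 of all windows (4326 at an unadjusted p under 0.05), and without NDLN TDT_SP replicate 1 it called 112, with 0 and 2 of the gained windows. Without tumor TDT_SP replicate 3, 34 gained windows were called, and 1060 and 1178 of all windows without replicates 1 and 2.

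Node TDT_SP minus node DN was called at 6 gained windows, all higher in TDT_SP, where 5.32% of all windows tested were called, 1.44% higher and 3.88% lower. These were the same 6 windows as those named lower in tumor, and both comparisons use the node TDT_SP libraries. At the strongest 14000 peaks the Pcca, Foxq1 and Zfp827 windows had peaks in the 2 node TDT_SP lists only. They entered the fit through the group where they are high and are no support for a difference of the gained windows. The node DN lists had a peak at only 14 and 22 of the gained windows, so lower calls had little room. The direction of the 6 calls is therefore no result about the gained windows. With the strongest 10000 peaks 1 gained window was called, lower in TDT_SP. Inside Pcca (chr14:122830465-122830965), a gene of propionate metabolism, DLN and NDLN TDT_SP had 0.368 and 0.382 and both node DN lists 0 (difference 0.375, SE 0.0461, adjusted p = 0.00581). Tumor TDT_SP had a kept peak there in 1 library. Near Foxq1, a forkhead factor gene, the values were 0.359 and 0.349 against 0 (difference 0.354, adjusted p = 0.00637). The other differences were 0.196 at Zfp827, 0.323 at B4galnt3, 0.388 at Ankrd12 and 0.455 at Cand1, with adjusted p from 0.0253 to 0.0462. Leaving out 1 of the 4 libraries left 2 to 4 gained windows called and 315 to 467 of all windows, and the calls at Ankrd12 and Cand1 were lost in each case.

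Node LAG3_SP minus node DN was called at 9 gained windows, 7 higher and 2 lower in LAG3_SP, where 8.27% of all windows tested were called, 2.24% higher and 6.03% lower. A window 25.96 kb from Ezh2 (chr6:47620979-47621479), which encodes the catalytic subunit of PRC2, had 0.547 in DLN and 0.648 in NDLN LAG3_SP and 0 in both DN lists (difference 0.598, SE 0.119, adjusted p = 0.0216). In tumor it had 0.721, 0.766 and 0.6 in DP, 0.785, 0.777 and 0.662 in LAG3_SP and 0.478, 0.0102 and 0.255 in TDT_SP. Inside Ago2, the gene of an Argonaute protein of RNA silencing, node LAG3_SP had 0.426 and 0.578 (difference 0.502, adjusted p = 0.0117). At Nrp1, one of the strongest windows in tumor, it had 0.19 and 0.399 (difference 0.295, adjusted p = 0.0324). The others named by the rule were a window with no gene within 100 kb on chromosome 8 (0.269, adjusted p = 0.0105), one near Map3k7cl (0.307, 0.0162) and one inside Galnt7 (0.253, 0.0217). The windows on chromosome 8 without a gene and at Map3k7cl, Galnt7 and Nrp1 had peaks in the 2 node LAG3_SP lists alone at this depth. Their entry into the fit came through the group where they are high, so they are no support for a difference of the gained windows. Lower in node LAG3_SP were windows near Rpl34 (-0.225, adjusted p = 0.0238) and inside Mbnl1 (-0.348, adjusted p = 0.0253), where node DN had 0.216 and 0.234, and 0.367 and 0.418. No gained window kept its call in limma when either DN library was left out, a fit that leaves 1 DN library. Without DLN LAG3_SP replicate 1, which leaves the library that stood apart, 68 gained windows and 4530 of all windows were called, and without NDLN LAG3_SP replicate 1 it was 5 gained windows.

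The short tumor lists, also outside the rule, gave a further look at DP and DN. DP replicate 3, with 5188 peaks, had a peak at 57 of the windows, and 40 of these were among its strongest 4603. DN replicate 3, with 4603 peaks in all, had a peak at 2. At that length the lists covered 7.73% and 5.21% of all windows away from gene ends and 16.2% and 15.7% of all windows. Stab2, Il10, Id2 and Ly75 were among the windows found in DP replicate 3, and no window was found in both. The short node lists held 0, 1, 2 and 0 of the windows in DLN DN, DLN TDT_SP, NDLN DN and NDLN TDT_SP.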

How the data were processed

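Bulk ATAC-seq of sorted CD8 T cells was deposited as 1 peak list and 1 summit list per library, 24 in all, on mouse build GRCm38 (mm10). Per the submitters' processing notes the tools were BWA for alignment and MACS2 for peaks, with no version or setting given there. Each deposited peak carries a score, a fold ratio over background, a -log10 p and a -log10 q, all computed by the authors within 1 library. The lists hold no read counts, so depth is unknown and no count test was used.

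Peaks were ranked by the authors' -log10 p within a library (53 of 586440 peaks on other sequences were left out), and the 6 lists under 10000 peaks entered no choice and no fit. A window counted as having a peak at 1 bp of overlap, and was given to the nearest of 21631 protein-coding genes of the RefSeq GRCm38.p6 table within 100 kb. Tests used limma 3.58.1 (lmFit, eBayes with trend; R 4.3.3) on the 9 libraries outside the rule, over windows with a peak in 2 or more of them. The deposited fold ratio served in 1 alternative, as log2 of the ratio plus 1. In simulated data a shift of 0.6 was recovered in 74 of 100 windows for tumor minus node TDT_SP. It was 75 for node TDT_SP minus DN and 77 for node LAG3_SP minus DN, and a shift of 0.3 gave 11, 8 and 7. False calls numbered 6, 4 and 7 with 20964 windows simulated. The simulated noise was normal with 1 spread for all windows, whereas rank values lie between 0 and 1 and are often 0. These shares may therefore not hold for the gained windows. Other steps used Python 3.11.15.

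Windows named in the text are the 8 with the highest mean over DP and LAG3_SP, up to 4 per gene list (20 lists, 211 genes, 210 in the table), the genes with the most windows, up to 6 called windows per test and direction, and the 5 highest in TDT_SP and the 5 highest without it. Others (the annotated starts, the third Il10 window, the Ccl3 pair) were chosen after their values were seen, and not every window the rule takes is described. The windows and the gene lists were chosen with earlier results of these data known. Since no label ties libraries to animals, p-values reflect spread among libraries, which may be technical. A share of all windows holding a motif needs the genome sequence and was not computed. Annotated starts were not searched on chromosome 18. A few genes the rule takes are not reported here.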

Additional observations from a re-analysis of the deposited data

Results flagged for a closer look

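DP replicate 3 had a peak at 57 of the gained windows in its whole list of 5188 peaks, against 1006 to 1072 in the 3 long DP lists of 24050 to 45286 peaks. At an equal length, the strongest 4603 peaks, it had 40, against 31, 59 and 23 in DP replicates 1, 2 and 4, and did not stand apart. DN replicate 3 had 2 of the windows in its 4603 peaks, while the 3 long DN lists have none among their strongest 4603 because the choice of windows required it. Both were singled out by the gap between a sample and the rest of its group of 4. Chance alone gives such a gap in about 1 of 20 groups. That rate does not hold here, because the other libraries of both groups served the choice of windows.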

How the results depend on the processing

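The number of gained windows was 852 with the strongest 14000 peaks and 588 with the strongest 10000, which overlapped 437 and 145 of the 1072, and 1036 with the summit required inside the window. It was 578 with all 6 lists required, 939 at over 5 kb from gene ends and 266 with no peak in any full DN list. With 1 of the 9 libraries left out it was 1137 to 1482. Leaving out a DP or LAG3_SP library also lowered the number of lists required, and leaving out a DN library removed a condition. Every such set held all 1072 windows, so this count could only rise. The share in 2 or more TDT_SP lists (49.2%) became 42.5%, 33.5% and 47.6% with 14000 peaks, 10000 peaks and summits, 59% with all 6 lists, 19.9% without any DN peak and 32.9% to 37.7% when only 2 TDT_SP libraries were left and both were required; the last 2 were chosen after seeing the data. Over all windows, tumor minus node TDT_SP was called at 1347 on presence or absence (799 higher, 548 lower) and 0 to 1671 with 1 library left out. Its split of higher and lower calls was 1034 and 1394 in all 18 libraries. Node TDT_SP minus node DN was called at 2103 in all 18 libraries and 315 to 467 with 1 left out, and node LAG3_SP minus node DN at 2862 and 653 to 4530. The cause was not tested. With 1 left out, a group may have a single library, assumed to vary like the others. Gained windows called ranged from 2 to 45, 1 to 10 and 3 to 16 in the 3 tests over the alternatives that keep every library, with most on the log2 scale of the fold ratio and fewest with 10000 peaks. Of 12, 6 and 8 named calls in the 3 tests, 1, 0 and 0 held under every alternative run (Pcca in the first), and none reversed. Pcca had peaks in the 2 node TDT_SP lists alone and was not fitted without either of them. Its call was therefore not tried in the 2 alternatives that moved the first test most. The other alternatives, among them the node as a block, moved these counts over all windows by less than 1.5 times. No paired analysis was possible because the long lists of the groups tested share fewer than 2 replicate numbers. Peak lists show order within a library, so unequal library quality and true differences in openness cannot be told apart, and a missing peak is not closed chromatin.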
